A study of Mus musculus with 10 samples.

Results

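The genes of antigen presentation by MHC class II molecules were followed through NGS assays of murine keratinocytes and CD8+ T cells. They comprise the transactivator gene Ciita, the class II chain genes H2-Aa, H2-Ab1 and H2-Eb1, the invariant chain gene Cd74, the peptide-loading genes H2-DMa and H2-DMb1, and the protease gene Ctss. These 8 genes were chosen by name, and all 8 were found among the 25814 genes that each of the 10 deposited tables holds. Lyz2, a lysozyme gene of myeloid cells, and Cd79a, a B-cell receptor gene, were read along as a check on antigen-presenting cells in the cultures. The study asked how T cells affect gene expression in keratinocytes, and 5 groups of 2 libraries each were sequenced. Keratinocytes came from the tails of adult mice and were cultured alone or together with CD8+ T cells, which were washed off before lysis. CD8+ T cells were enriched from spleen with CD8 microbeads and given antibodies to CD3 and CD28 for 1 d. By the labels they were taken after this 1 d (activated T cells), after 1 further day in medium (T cells in medium), or after co-culture with keratinocytes (co-cultured T cells). For the first group, a figure legend of the paper names pre-activated T cells kept for 1 d in X-vivo. It does not say whether this was a further day. The mice of the study were C57/B6 animals of 8 to 12 weeks, besides the newborn mice, and no library is labelled with a genetic change. The medium was a 4:1 mix of keratinocyte SFM and X-vivo by the methods, and keratinocyte medium by the labels. Co-culture lasted 1 d by the T-cell labels, and 1 h by the deposited design text. Enrichment by beads leaves other spleen cells in a T-cell culture, and a primary culture from skin can hold cells other than keratinocytes. The deposited design text speaks of 2 parallel experiments but does not say which libraries form one, and the labels do not say whether the 2 libraries of a group came from separate mice, so p-values measure the spread between these libraries, which may be technical.

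MHC class II molecules present peptides from endocytosed proteins to CD4+ T cells. They are carried above all by dendritic cells, macrophages and B cells, while murine T cells express little of them. Other cells, keratinocytes among them, can be induced to express class II genes by IFN-γ, which acts through IRF1, among other factors, on the Ciita gene. The CIITA protein does not bind DNA itself but is recruited to class II promoters by RFX, CREB and NF-Y, which occupy short neighboring boxes named X and Y. Newly made α and β chains assemble with the invariant chain CD74, which proteases such as cathepsin S (Ctss) cut down to a short peptide in the groove. H2-DM, a dimer encoded by H2-DMa and an H2-DMb gene, then exchanges this peptide for others, and H2-O, encoded by H2-Oa and H2-Ob, holds H2-DM in check.

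In the tables, with GRCm38 coordinates, the class II chain and H2-DM genes lie close together in the MHC on chromosome 17. H2-DMa (ENSMUSG00000037649) spans 34135182 to 34139101 with 5 exons, and H2-DMb1 (ENSMUSG00000079547) spans 34153072 to 34160230 with 6 exons. H2-Ab1 (ENSMUSG00000073421) spans 34263209 to 34269418 with 6 exons, H2-Aa (ENSMUSG00000036594) spans 34282744 to 34287827 on the minus strand with 7 exons, and H2-Eb1 (ENSMUSG00000060586) spans 34305877 to 34316199 with 6 exons. Outside the MHC, Ciita (ENSMUSG00000022504) lies on chromosome 16 from 10480059 to 10528418 with 28 exons, and Ctss (ENSMUSG00000038642) on chromosome 3 from 95526786 to 95556403 with 10 exons.

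Promoter sequences were taken from RefSeq (GRCm38.p6), where 5 of the 8 genes had an entry, H2-Aa, H2-Eb1, H2-DMa, H2-DMb1 and Ctss. Stretches upstream of the start are shown for 2 class II chain genes and for H2-Oa, whose RNA is described with that of H2-DMa below, because they carry both boxes that the CIITA-recruiting factors occupy. Capitals mark the X core GNAAC and the Y core GATTGG, read 5′ to 3′ on the strand of the gene.
H2-Aa, chr17:34287867-34287924, minus strand: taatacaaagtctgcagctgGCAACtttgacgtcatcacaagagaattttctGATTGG
H2-Eb1, chr17:34305756-34305812, plus strand: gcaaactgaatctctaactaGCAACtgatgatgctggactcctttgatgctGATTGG
H2-Oa, chr17:34092283-34092340, plus strand: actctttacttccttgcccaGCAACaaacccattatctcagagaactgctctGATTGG
The X core begins 32, 31 and 32 bases before the Y core in these 3 promoters, and 32 bases before it in H2-DMb1. Among the 32851 promoters of the same table, searched on both strands over the 250 bases before the start, 14.6% held GATTGG, 79.6% held GNAAC, and 0.551% held GNAAC beginning 25 to 35 bases before GATTGG. For H2-DMa, RefSeq lists 2 starts, 9664 and 12350 bases away from the gene start in the tables, and neither promoter held the pair. The stretch before that gene start itself was not searched, so whether it holds the pair is not known here. The Ctss promoter is shown as that of a gene outside the MHC. It held no GATTGG, but held GAAA, any pair of bases and GAAA again, the core of sites for interferon regulatory factors, here in capitals. This motif was present in 2.98% of all promoters.
Ctss, chr3:95526725-95526785, plus strand: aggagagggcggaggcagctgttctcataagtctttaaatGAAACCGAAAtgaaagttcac

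Libraries held 12864931 to 18019609 exon reads. Levels are given as RPKM, reads per kb of exons scaled to the mapped reads of the library, and 3 reads per kb of exons correspond to 0.158 to 0.212 RPKM. The smallest level told apart from 0 was set at 3 reads, which covers counting error only. The labelled cell types were checked by their markers. Krt14 reached 7240 to 11836 RPKM in the keratinocyte libraries, and Cd8a 110 to 334 RPKM in the T-cell libraries. Keratinocyte libraries also held RNA of other cells, with Cd3d at 18.1 and 67.1 RPKM in keratinocytes alone and 19.0 and 115 in co-culture. Cd8a in the same 4 libraries stayed between 0.118 and 1.16 RPKM, while Cd4 lay between 11.4 and 84.5. In the T-cell libraries Cd4 was found at 16.8 to 102 RPKM. Langerhans cells, the dendritic cells of the epidermis, left no read of their marker Cd207 in any of the 10 libraries, and Clec9a, Siglech and Cd209a, markers of dendritic subsets, had no read in the keratinocyte libraries. All 5 Langerhans markers read along, among which only Cd207 is specific, summed to 9.34 to 22.4 RPKM in keratinocytes alone and 9.55 to 34.9 in co-culture. In such bulk samples fewer cells of a type and less RNA per cell cannot be told apart.

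Ciita RNA was scarce in all groups. In keratinocytes alone 2 and 4 exon reads were counted (0.013 and 0.028 RPKM), and in co-cultured keratinocytes 3 and 6 (0.024 and 0.044 RPKM). These counts are at or close to the smallest level told apart from 0, so no fold is given for keratinocytes, and Ciita did not pass the filter on low counts there. Activated T cells had 53 and 38 reads (0.382 and 0.319 RPKM), T cells in medium 22 and 21 (0.172 and 0.147 RPKM), and co-cultured T cells 18 and 8 (0.143 and 0.068 RPKM). All 6 T-cell libraries were thus above the 4 keratinocyte libraries, and the activated ones were highest. Most of these reads also map to other places in the genome. Uniquely mapped were only 7 and 0 reads in activated T cells, 12 and 0 in T cells in medium, 3 and 2 in co-cultured T cells, and 0 to 4 in the keratinocyte libraries. The levels of Ciita, and the order of its T-cell groups, are therefore uncertain. In edgeR's quasi-likelihood test with Benjamini-Hochberg adjustment, the log2 fold change was -0.98 (SE 0.94) in medium against activated T cells (adjusted p = 0.575) and -1.55 (SE 0.96) in co-cultured against activated T cells (adjusted p = 0.330).

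The class II chains H2-Aa and H2-Ab1 (together I-A) and H2-Eb1 (the β chain of I-E) were found in every library. In keratinocytes, H2-Aa was measured at 3.26 and 15.7 RPKM without T cells and at 6.10 and 26.9 with them. In T cells its values were 45.7 and 104 RPKM upon activation, 49.2 and 144 in medium, and 35.5 and 46.9 in co-culture. H2-Ab1 followed at 2.70 and 10.3 RPKM in keratinocytes alone, 4.62 and 19.7 in co-cultured keratinocytes, 38.4 and 90.3 in activated T cells, 34.9 and 82.1 in T cells in medium, and 26.9 and 31.2 in co-cultured T cells. Except in co-cultured T cells, the 2 libraries of a group differed by 2.28 to 4.81 times for both genes. H2-Eb1 had 3.29 and 13.7 RPKM in keratinocytes without T cells, 4.56 and 15.6 in co-cultured keratinocytes, 36.9 and 71.9 in activated T cells, 36.7 and 88.0 in T cells in medium, and 21.3 and 28.8 in co-cultured T cells. The 3 chain genes varied closely together over the 10 libraries (Pearson's r of log2(RPKM + 0.1) from 0.989 to 0.994, a description across libraries that also differ in cell type and composition). Their order of groups placed both keratinocyte groups lowest, with overlapping values, and co-cultured T cells above them without overlap. Activated T cells and T cells in medium overlapped at the top for each of the 3 genes. For H2-Aa, co-cultured T cells also overlapped activated T cells, at 46.9 RPKM for the highest co-cultured and 45.7 for the lowest activated library.

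None of the 3 chain genes passed the test in any T-cell comparison. Against T cells in medium, the log2 fold changes in co-cultured T cells were -1.21 (SE 0.62) for H2-Aa, -0.98 (SE 0.57) for H2-Ab1 and -1.28 (SE 0.56) for H2-Eb1, with edgeR adjusted p-values of 1. The values of H2-Ab1 and H2-Eb1 did not overlap between these groups. Those of H2-Aa did not overlap either, at 46.9 RPKM for the highest co-cultured and 49.2 for the lowest medium library.

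Cd74 (ENSMUSG00000024610, on chromosome 18 from 60803848 to 60812646, 12 exons) was the class II gene with the highest level in activated T cells. It was found at 119 and 177 RPKM in activated T cells, 110 and 106 in T cells in medium, and 49.0 and 34.2 in co-cultured T cells, so that the 3 groups did not overlap. Keratinocytes had 5.60 and 19.4 RPKM alone and 8.17 and 33.4 in co-culture. Cd74 fell from activated to co-cultured T cells by 1.66 on the log2 scale (SE 0.34, edgeR adjusted p = 0.0229), to a mean of 41.6 ± 10.5 RPKM (SD, n = 2) from 148 ± 41.2 (SD, n = 2). Without activated replicate 2 the change was -1.28 (edgeR adjusted p = 0.0705), and without co-cultured replicate 2 it was -1.51 (edgeR adjusted p = 0.128). Against T cells in medium, which were of the same age, the log2 fold change was -1.34 (SE 0.34) and did not pass the test (edgeR adjusted p = 0.503), but did so with DESeq2 (-1.35, adjusted p = 0.0401). Activated and medium T cells differed by -0.32 (SE 0.33, edgeR adjusted p = 0.613).

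B-cell RNA was lower in the same co-cultured libraries. Cd79a was at 10.4 and 8.81 RPKM in activated T cells, 15.9 and 26.9 in T cells in medium, and 3.29 and 7.28 in co-cultured T cells. The summed level of 7 B-cell markers ranged from 30.0 to 32.4 RPKM in activated T cells, from 43.5 to 87.5 in medium, and from 16.9 to 27.5 in co-culture, and Blk had no read in 1 co-cultured library. In medium, the library with the higher class II chains had a sum of 87.5 RPKM against 43.5, with 6 of the 7 markers higher and Pax5 lower (0.153 against 0.514 RPKM). In activated T cells the corresponding sums were 32.4 and 30.0 RPKM, with 6 of 7 markers higher and Cd79a lower. Lyz2 was at 10.6 and 57.4 RPKM in activated T cells, the higher value in the library with the higher class II chains. Of the myeloid and dendritic markers, Mpeg1 alone was lower in that library (3.60 against 3.87 RPKM). In the other T cells Lyz2 stayed at 37.9 and 39.9 RPKM in medium and 31.4 and 33.6 in co-culture. The summed level of 12 myeloid and dendritic markers was 81.6 to 92.5 RPKM in medium, 78.0 to 90.7 in co-culture, and 32.3 to 136 in activated T cells, with none at 0. The part of B cells and of myeloid cells in these class II levels was not tested. Of the B-cell markers, 0 of 7 passed edgeR's test in co-culture against activated T cells, and 1 of 7 had a log2 fold change above 0 there. Against medium 0 of 7 passed, and Cd79a had a log2 fold change of -1.95 (SE 0.55, edgeR adjusted p = 0.688).

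H2-DMa departed from the chains it serves. Activated T cells had 13 and 10.4 RPKM, T cells in medium 53.9 and 58.5, and co-cultured T cells 63.1 and 65.5, against 0.745 and 2.91 in keratinocytes alone and 2.07 and 4.09 in co-cultured keratinocytes. The 3 T-cell groups did not overlap, and the 2 libraries of a group lay close together. H2-DMa rose by a log2 fold change of 2.42 (SE 0.32, edgeR adjusted p = 0.0130) from activated T cells to T cells in medium, and of 2.66 (SE 0.32, edgeR adjusted p = 0.00597) to co-cultured T cells. It rose as 1 of the 8 genes in medium, where 2.32% of all 11863 genes tested were higher and 4.22% lower. In co-culture against activated T cells, H2-DMa rose and Cd74 fell among the 8 genes, beside 4.59% of all genes higher and 5.72% lower. Medium and, by the labels, time after activation differ together in both comparisons and cannot be told apart. The rise in medium missed the threshold without activated replicate 1 (2.55, edgeR adjusted p = 0.0638) and without medium replicate 2 (2.28, edgeR adjusted p = 0.0747). Between medium and co-culture the log2 fold change was 0.24 (SE 0.30, edgeR adjusted p = 1). Over the 4 libraries in medium and co-culture, Cd79a was at 3.29 to 26.9 RPKM and H2-DMa at 53.9 to 65.5. The part of B cells in the level of H2-DMa was not tested.

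H2-DMb1, the partner of H2-DMa, did not follow it. Its levels were 2.85 and 3.18 RPKM in keratinocytes alone, 2.01 and 4.02 in co-cultured keratinocytes, 1.86 and 4.65 in activated T cells, 3.41 and 3.76 in T cells in medium, and 4.35 and 4.28 in co-cultured T cells. Both co-cultured T-cell libraries lay above those in medium and above the keratinocyte libraries, while activated T cells spanned the other groups. Log2 fold changes among T cells were between 0.27 and 0.58 (SE 0.62 to 0.63), and none passed the test. The levels rest on 43 to 94 reads per library, some of which are shared with other places such as the near copy H2-DMb2, since 31 to 82 reads were uniquely mapped. H2-DMb2 itself was at 5.32 and 11.4 RPKM in activated T cells, 5.92 and 10.6 in medium, and 2.87 and 4.47 in co-culture, and passed no test.

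Of the H2-O genes, whose product acts on H2-DM, H2-Oa rose as H2-DMa did, and H2-Ob passed no test. H2-Oa was at 4.92 and 9.32 RPKM in activated T cells, 66.7 and 59.6 in T cells in medium, and 75.7 and 76.3 in co-cultured T cells. Compared with activation, the log2 fold change was 3.28 (SE 0.43, edgeR adjusted p = 0.0122) in medium and 3.60 (SE 0.43, edgeR adjusted p = 0.00569) in co-culture. Without activated replicate 1 and without medium replicate 2 the rise in medium missed the threshold (edgeR adjusted p = 0.0534 and 0.0627). H2-Ob was at 1.44 and 2.63 RPKM in activated T cells, 4.42 and 6.10 in medium, and 5.81 and 7.51 in co-culture, with log2 fold changes against activated T cells of 1.51 (SE 0.50, edgeR adjusted p = 0.110) in medium and 1.90 (SE 0.51, edgeR adjusted p = 0.0517) in co-culture.

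Ctss, the cathepsin that trims the invariant chain, was found at 39.3 and 91.9 RPKM in activated T cells, 124 and 135 in T cells in medium, and 131 and 148 in co-cultured T cells. Keratinocytes had 8.38 and 29.0 RPKM alone and 9.16 and 42.8 in co-culture. The activated T-cell libraries lay below the other 4 T-cell libraries, and one of them overlapped the keratinocytes. Log2 fold changes against activated T cells were 1.11 (SE 0.44, edgeR adjusted p = 0.170) in medium and 1.27 (SE 0.45, edgeR adjusted p = 0.109) in co-culture. Both passed the threshold without the filter on low counts (edgeR adjusted p = 0.0355 and 0.0110), and the second also with DESeq2 (adjusted p = 0.0412) and without activated replicate 2 (2.08, edgeR adjusted p = 0.0326).

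**Figure D1:**
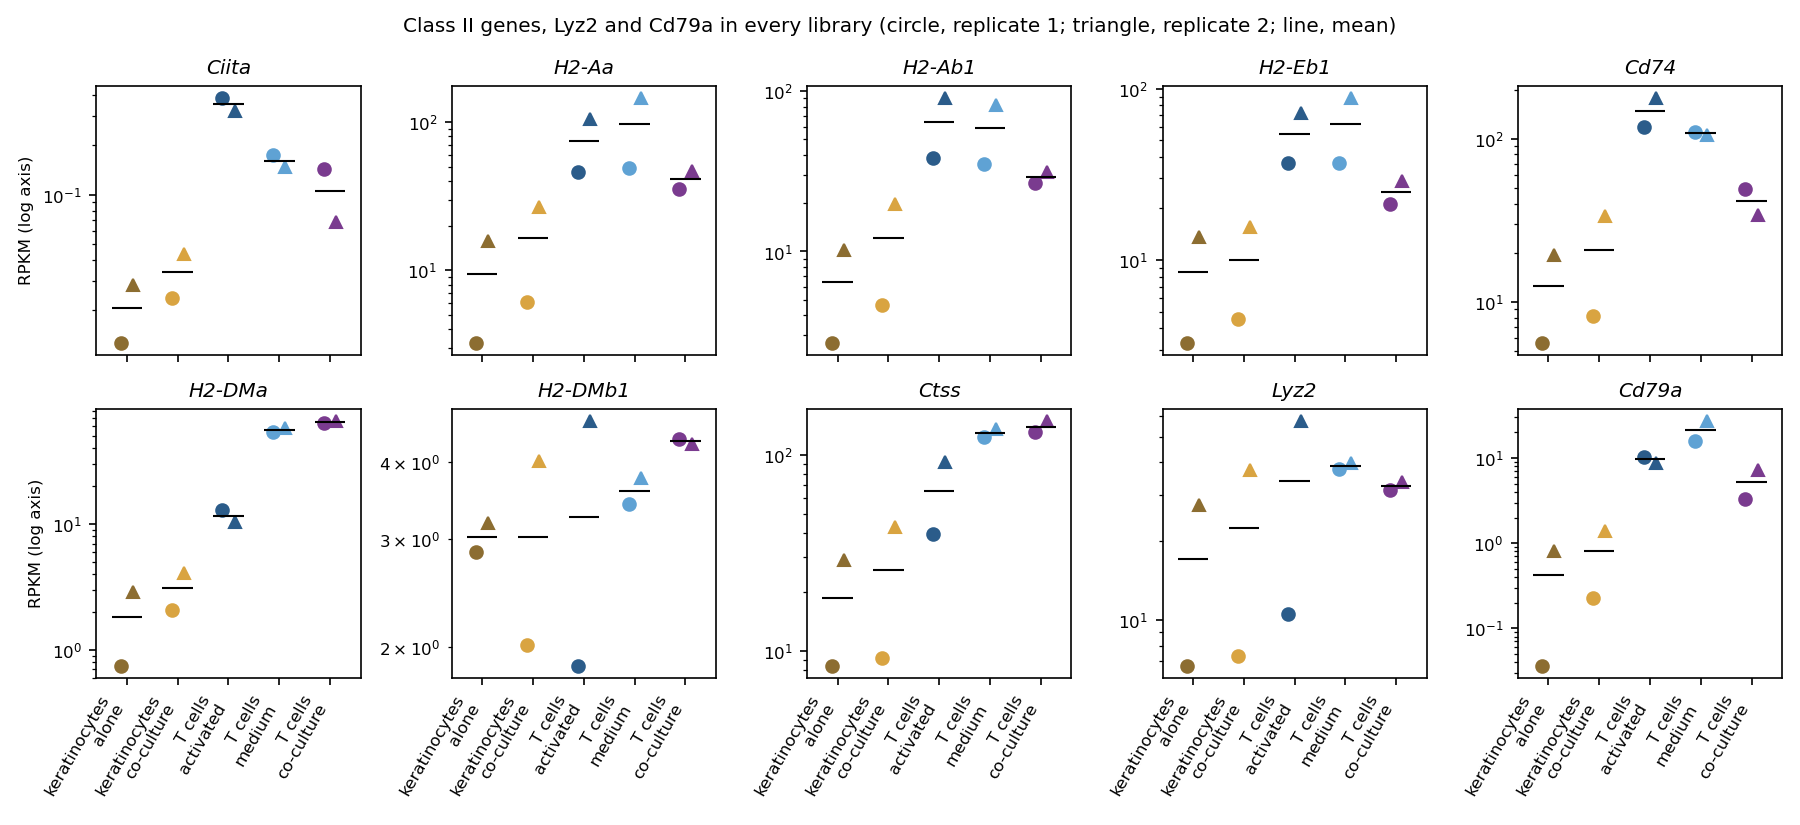
Levels in RPKM (log axis, a separate scale for each gene) of the 8 class II genes, Lyz2 and Cd79a in the 10 libraries. Circles and triangles are replicates 1 and 2 of a group, and lines are means. H2-DMa separates activated T cells (13 and 10.4 RPKM) from the other T cells (53.9 to 65.5 RPKM), whereas Cd74 is lowest of all T cells in co-culture (49.0 and 34.2 RPKM).

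In T cells as a whole, 6 of the 8 genes had a log2 fold change above 0 in medium and 3 of 8 in co-culture, each against activated T cells. The medians were 0.31 and -0.80, beside -0.01 for all genes in both comparisons, which share the activated libraries. Counted by non-overlapping groups, 2 genes were higher and 2 lower in medium (22.1% and 32.5% of all genes), and 2 higher and 4 lower in co-culture (23.6% and 33.9% of all genes). Between co-culture and medium, 2 were higher and 5 lower, against 14.2% and 13.1% of all genes. Ciita, whose order of T-cell groups is uncertain, counts among the lower genes in each of these comparisons. H2-Aa counts as lower in the last one by 46.9 RPKM in co-culture against 49.2 in medium. In that last comparison 0 of 8 genes passed edgeR's test, where 0.261% of all genes were higher and none lower. At an unadjusted p under 0.05 there were 2 (Cd74 and H2-Eb1), with DESeq2 1 (Cd74), and with limma 0.

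**Figure D2:**
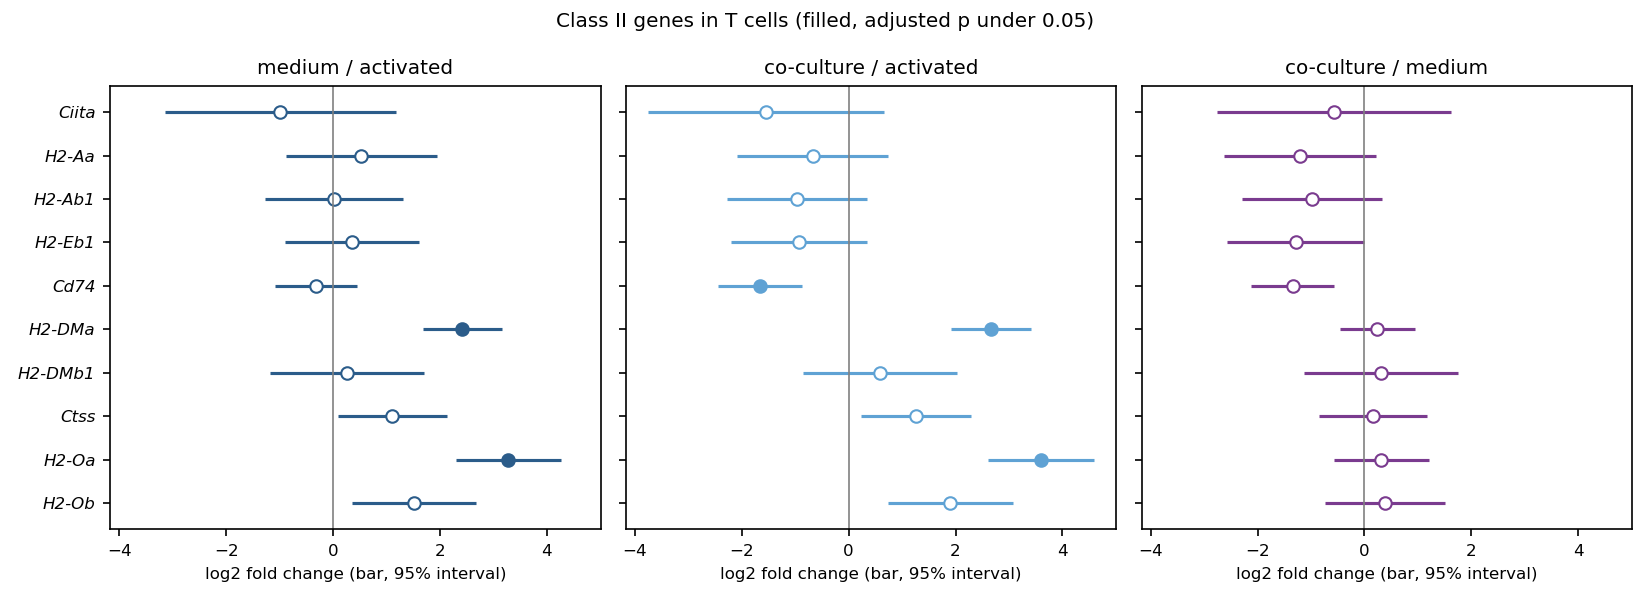
Log2 fold changes (points) with 95% intervals (bars, not adjusted for the number of genes) of the 8 class II genes, H2-Oa and H2-Ob in the 3 comparisons of T-cell groups. Filled points passed an adjusted p of 0.05. H2-DMa (2.42 and 2.66) and H2-Oa (3.28 and 3.60) stand to the right of 0 against activated T cells, and Cd74 to the left (-1.66) in co-culture.

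For keratinocytes, the comparison asks whether class II RNA was higher after co-culture with T cells. By the methods, co-cultures held the 4:1 mix of keratinocyte SFM and X-vivo, whereas keratinocytes were maintained in SFM. The methods do not say whether the sequenced keratinocytes alone also had X-vivo. If they did not, medium and T cells differ together and cannot be told apart. All 7 genes that could be tested had a log2 fold change above 0 in co-culture, from 0.09 (H2-DMb1, SE 0.62) to 1.00 (H2-Ab1, SE 0.99), with a median of 0.83 beside 0.02 for all genes. The same held for 8 of 8 T-cell markers (median 0.93). It held for 3 of 3 B-cell markers tested (0.80) and 4 of 4 Langerhans markers (0.76). Of the myeloid and dendritic markers 9 of 11 were above 0 (0.49). Of the dendritic subset markers 1 of 2 was (-0.98), and of the keratinocyte markers 3 of 8 (-0.53). The log2 fold changes of H2-Aa, Cd74 and H2-DMa were 0.90 (SE 1.05), 0.83 (SE 0.93) and 0.83 (SE 0.89). Ctss was at 0.57 (SE 0.96) and H2-Eb1 at 0.34 (SE 0.94). None passed the test (edgeR adjusted p of 0.741 or more), nor at an unadjusted p under 0.05, nor with DESeq2 or limma. Over all 12515 genes edgeR called 0 (0% higher and 0% lower), with 386 higher and 515 lower at an unadjusted p under 0.05, and DESeq2 called 186 and limma 0. The 95% intervals were wide, for H2-Ab1 from -1.54 to 3.54, and thus included changes of several fold in both directions. Without co-cultured replicate 2, 6 of the 7 fold changes were below 0, the lowest being -1.05 (Ctss), and without keratinocytes alone replicate 1, 3 of 7. All 7 genes overlapped between the groups, while 19.8% of all genes were higher and 24.3% lower without overlap.

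The libraries numbered 2 had more class II RNA than those numbered 1 in both groups. For H2-Aa the ratio of replicate 2 to replicate 1 was 4.81 in keratinocytes alone and 4.41 in co-culture, for H2-Ab1 3.81 and 4.26, for H2-Eb1 4.16 and 3.42, for Cd74 3.46 and 4.09, and for Ctss 3.46 and 4.67. H2-DMa gave 3.90 and 1.97, and H2-DMb1 1.11 and 1.99. Thus 5 of the 7 genes with a mean of 1 RPKM or more were 3 times or more higher in replicate 2 of both groups, against 3.61% of the 10992 genes at this level. RNA of immune cells was distributed in the same way. Lyz2, at 6.69 and 27.4 RPKM alone and 7.30 and 37.6 in co-culture, had ratios of 4.11 and 5.15, and Cd3d of 3.72 and 6.05. By the same measure this held for 6 of 7 T-cell markers and 5 of 7 myeloid and dendritic markers, but for 0 of 9 class I genes and 0 of 7 keratinocyte markers. Cd79a was low, at 0.036 and 0.806 RPKM alone and 0.226 and 1.37 in co-culture, and the B-cell gene Pax5 had no read. The summed level of the 12 myeloid and dendritic markers was 53.1 to 92.2 RPKM alone and 47.0 to 108 in co-culture, and that of the 8 T-cell markers 110 to 434 and 142 to 778. To the myeloid and dendritic sum Cd68 contributed 40.7 and 39.4 RPKM alone and 29.7 and 24.0 in co-culture. It was not higher in replicate 2, and lay above its 3.83 to 17.8 RPKM in T cells. The part of such cells in the class II RNA of keratinocyte cultures was not tested.

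**Figure D3:**
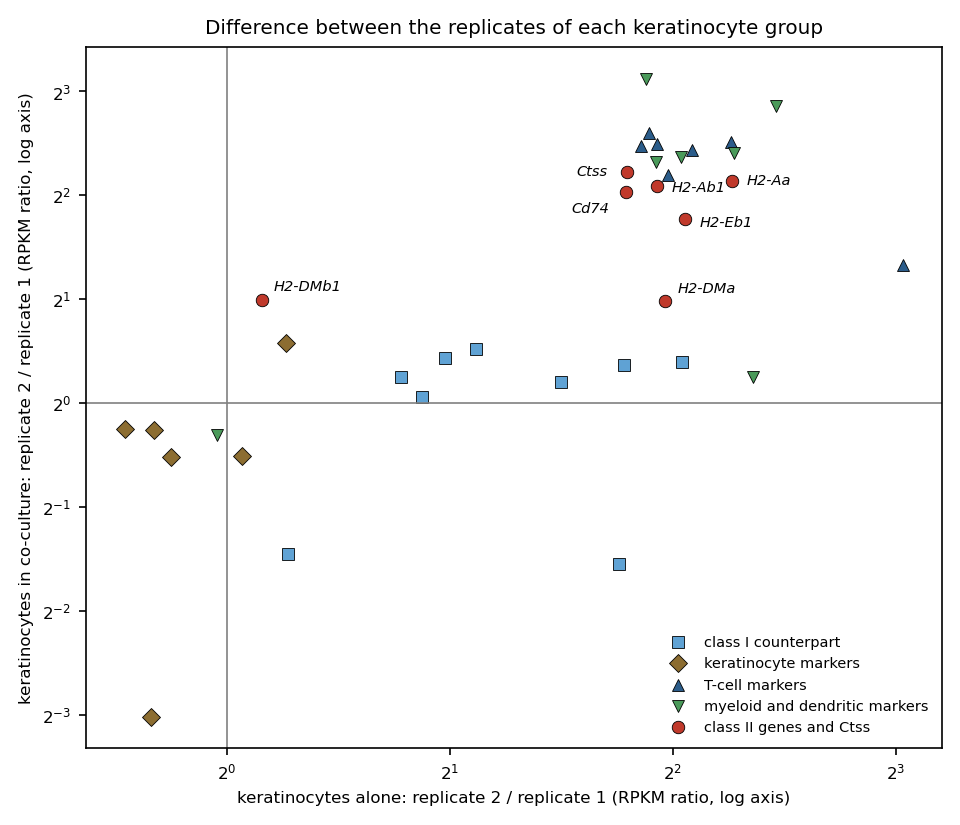
Ratio of replicate 2 to replicate 1 (RPKM, log axes) in keratinocytes alone and in co-culture for genes with a mean of 1 RPKM or more in either group. Krt10, with no read in one library, is not drawn. Class II genes other than H2-DMa and H2-DMb1 lie at the upper right with most T-cell, myeloid and dendritic markers, with H2-Aa at 4.81 and 4.41, apart from keratinocyte markers and class I genes.

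Divided by the level of Lyz2 in the same library, levels of the class II chain genes and Cd74 lay closer together between replicates than in RPKM. The ratio for H2-Aa was 0.487 and 0.571 in keratinocytes alone and 0.836 and 0.715 in co-culture. For H2-Ab1 it was 0.403 and 0.375 alone and 0.633 and 0.523 in co-culture, and for Cd74 0.838 and 0.706 alone and 1.12 and 0.888 in co-culture. On this scale, which was chosen after the levels of Lyz2 had been seen, these 3 of 7 genes were higher in co-culture without overlap and none was lower. Of all 10992 genes 3.14% were higher and 1.76% lower. Only 3.61% of the 10992 genes were 3 times or more higher in replicate 2 of both groups, as Lyz2 was. Division by Lyz2 moves the replicates of other genes apart, so the share over all genes is no reference for these 3. H2-Eb1, at 0.493 and 0.499 alone and 0.624 and 0.414 in co-culture, overlapped, as did H2-DMa, H2-DMb1 and Ctss. Replicates of H2-DMb1 moved further apart, to 0.427 and 0.116 alone and 0.276 and 0.107 in co-culture, and so did those of H2-DMa in co-culture (0.284 and 0.109). The result depends on the marker. Over C1qa, a complement gene of macrophages, H2-Aa was at 1.19 and 1.51 alone and 1.32 and 1.17 in co-culture. With this gene as denominator 0 of 7 class II genes were higher and 3 lower without overlap, with Csf1r 0 and 2, with Mpeg1 0 and 4, with Tyrobp 2 and 0, and with Cd68 or Fcer1g 0 and 0. Over the sum of the 12 myeloid and dendritic markers 1 gene was higher (H2-DMa) and 0 lower. In replicate 1 of both groups most of this sum was Cd68, whose mean in co-culture was 0.671 times that in keratinocytes alone. The mean level of Lyz2 in co-culture was 1.32 times that in keratinocytes alone, that of C1qa 2.11 times and that of Mpeg1 2.37 times. In T cells the same ratio was 4.32 and 1.82 for H2-Aa upon activation, 1.30 and 3.62 in medium, and 1.13 and 1.40 in co-culture, and thus above that of every keratinocyte library.

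The pathway from IFN-γ to Ciita was read in the same libraries. Of 9 of its genes, 0 passed edgeR's test in keratinocytes, with 5 above 0 and a median log2 fold change of 0.18. Irf1 was at 3.19 and 5.72 RPKM alone and 58.3 and 62.3 in co-culture, a log2 fold change of 3.83 (SE 0.45, edgeR adjusted p = 0.434). Its 95% interval lay above 0 before adjustment, from 2.67 to 4.98. The suppressor Socs1 was at 1.49 and 4.02 RPKM alone and 4.37 and 10.5 in co-culture. The receptor genes Ifngr1 (24.9 and 41.5 RPKM alone, 24.0 and 55.3 in co-culture) and Ifngr2 (10.7 and 9.31 alone, 10.3 and 7.14 in co-culture) were present in every keratinocyte library. So were the kinase genes Jak1 (26.3 to 41.6 RPKM) and Jak2 (4.22 to 7.64 RPKM), Irf2 (10.4 to 17.4 RPKM) and Usf1 (11.5 to 14.8 RPKM), which overlapped between the groups except Jak1 and Jak2. Jak1 was at 41.6 and 36.8 RPKM alone and 33.2 and 26.3 in co-culture, and Jak2 at 7.64 and 7.60 alone and 6.10 and 4.22 in co-culture. Class I genes and those that supply class I molecules with peptides all had fold changes above 0 (9 of 9, median log2 fold change 1.52), among them Tap1 at 20.9 and 35.9 RPKM alone and 145 and 173 in co-culture, and Psmb9 at 4.86 and 20.0 alone and 81.3 and 107 in co-culture. None of the 9 passed edgeR's test.

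**Figure D4:**
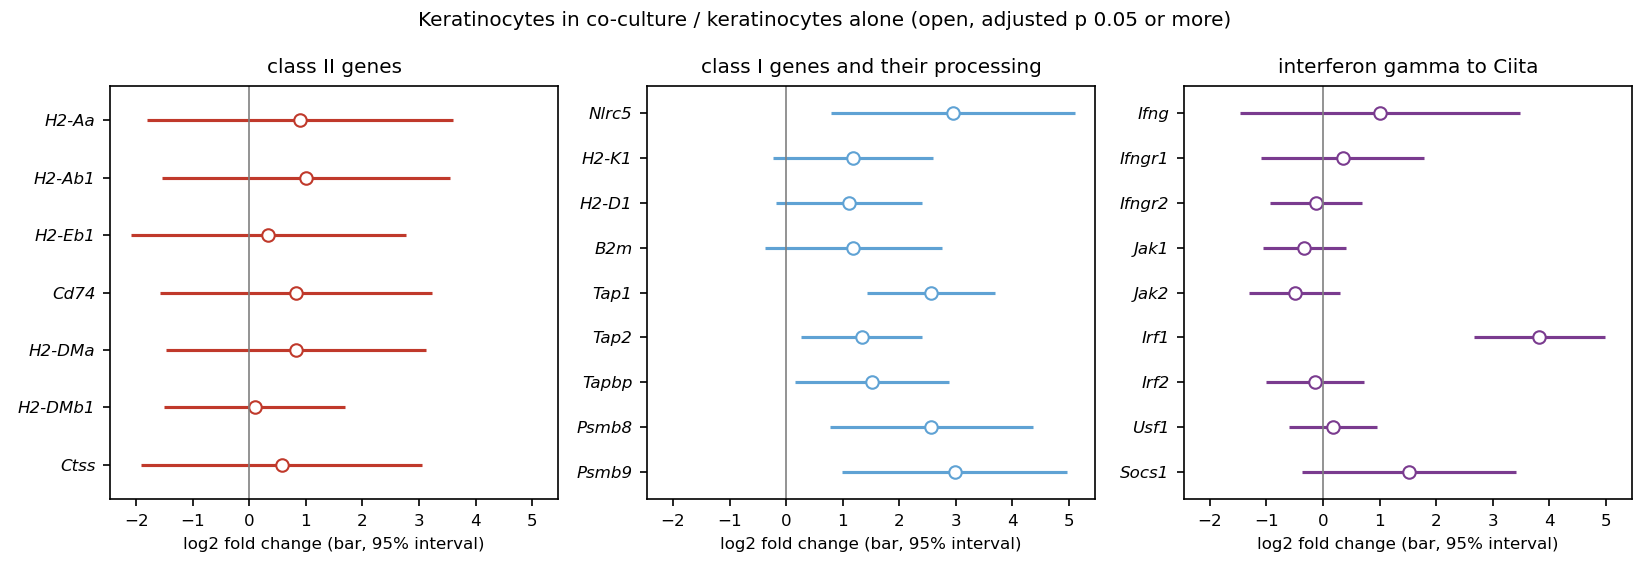
Log2 fold changes (points) with 95% intervals (bars, not adjusted for the number of genes) between co-cultured keratinocytes and keratinocytes alone for the class II genes tested, class I genes with their peptide supply, and the genes from IFN-γ to Ciita. All points are open, since none passed an adjusted p of 0.05. The intervals of the class II genes all include 0, whereas that of Irf1 (2.67 to 4.98) does not.

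The factors that hold CIITA at class II promoters were present in all groups. Summed over Rfx5, Rfxank, Rfxap, Nfya, Nfyb, Nfyc and Creb1, they reached 38.9 to 39.6 RPKM in keratinocytes alone, 36.5 to 39.3 in co-cultured keratinocytes, 64.8 to 65.2 in activated T cells, 57.6 to 61.8 in T cells in medium, and 50.0 to 65.1 in co-cultured T cells. Rfx5, which gives the RFX complex its DNA-binding subunit, was at 2.23 to 4.72 RPKM in keratinocytes and at 1.91 to 4.63 in T cells. The other RFX subunits were at 2.06 to 4.23 RPKM (Rfxank) and 3.53 to 7.14 (Rfxap) in keratinocytes, and at 1.24 to 4.84 and 4.58 to 8.61 in T cells. The NF-Y genes ranged from 3.0 to 12.7 RPKM in keratinocytes and from 4.24 to 22.3 in T cells. Creb1 was the 1 of these 7 genes that passed a test, with 5.30 and 6.22 RPKM in activated T cells and 13.8 and 10.7 in co-cultured T cells (log2 fold change 1.27, SE 0.30, edgeR adjusted p = 0.0357). This call was lost with library sizes in place of TMM (edgeR adjusted p = 0.0589), with limma (adjusted p = 0.0804) and with each of the 6 libraries left out in turn, where the adjusted p of edgeR was between 0.0580 and 0.187.

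IFN-γ itself fell in T cells. Ifng was at 613 and 589 RPKM in activated T cells, 5.95 and 7.20 in medium, and 3.26 and 6.20 in co-culture, a log2 fold change of -6.36 (SE 0.49, edgeR adjusted p = 0.00345) in medium and of -6.77 (SE 0.50, edgeR adjusted p = 0.00162) in co-culture. It was the 1 of the 9 genes of this pathway that passed a test in T cells. In the class I list, Psmb9 and Tap1 rose in both comparisons with activated T cells, by log2 fold changes of 1.76 (SE 0.33, edgeR adjusted p = 0.0243) and 1.73 (SE 0.29, edgeR adjusted p = 0.0205) in medium and of 1.75 and 1.98 in co-culture. The other 7 of 9 did not pass. Without activated replicate 1, medium replicate 1 or medium replicate 2 neither gene passed in medium (edgeR adjusted p from 0.0730 to 0.136), nor did Tap1 without activated replicate 2 (0.0546). In co-culture both missed it without activated replicate 1 (edgeR adjusted p = 0.105 for Psmb9 and 0.0507 for Tap1), and Psmb9 also without co-cultured replicate 2 (0.0681). Costimulatory genes were low, with Cd80 at 0.291 to 2.17 RPKM over all libraries, Cd86 at 0.281 to 1.59 in keratinocytes and 2.79 to 6.46 in T cells, and Cd40 at 0 to 2.20, and none of them passed a test.

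Of the other genes of class II biology, 11 of 14 were found in the tables. In medium against activated T cells 1 of the 11 rose (H2-Oa) and none fell, with a median log2 fold change of 0.70, beside -0.01 for all genes. In co-culture against activated T cells 2 rose (H2-Oa and Ctsl), with a median of -0.35, and against medium 1 (Ctsl), with a median of 0.10. Ctsl encodes cathepsin L, which processes the invariant chain in thymic epithelium. Its level was 1.58 and 1.82 RPKM in activated T cells, 2.10 and 2.86 in medium, and 25.2 and 25.3 in co-culture, a log2 fold change of 3.39 (SE 0.37, edgeR adjusted p = 0.0131) between the last 2 groups. Without medium replicate 1 or 2 the adjusted p from edgeR was 0.0786 and 0.0566. Keratinocytes had 152 and 153 RPKM alone and 82.1 and 89.7 in co-culture. Keratin RNA was found in the same co-cultured T cells, with Krt14 at 61.6 and 16.8 RPKM against 0.419 and 1.06 in medium, and the summed level of 8 keratinocyte markers was 39.3 to 118 RPKM against 5.53 to 7.32. The part of keratinocyte RNA in the T-cell values of Ctsl was not tested.

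Whether co-culture acted differently on the class II genes of keratinocytes and T cells was tested by an interaction term over 8 libraries. The difference of the log2 fold changes, keratinocytes minus T cells, was 2.19 (SE 1.11) for Cd74, 2.12 (SE 1.39) for H2-Aa, 2.00 (SE 1.26) for H2-Ab1 and 1.63 (SE 1.24) for H2-Eb1. For H2-DMa it was 0.60 (SE 0.90), for Ctss 0.43 (SE 1.15) and for H2-DMb1 -0.21 (SE 0.80), and for Ciita, whose keratinocyte counts are at the limit, it was 1.35 (SE 1.57). In edgeR's test 0 of the 8 genes passed (adjusted p of 0.796 or more), where 0.053% of all 13202 genes were higher and 0.523% lower, and none did so at an unadjusted p under 0.05, with DESeq2 or with limma.

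Over all 10 libraries, the 5 genes most like Ctss by Pearson's r of log2(RPKM + 0.1), among 11793 genes, were Cd3d, Rhoh, St8sia4, Ptpn18 and Snx20 (r from 0.993 to 0.997). Those most like H2-Ab1 were Nt5c, Trib2, Med30, Rpl36al and Cd86 (r from 0.974 to 0.979), and those most like Ciita were Med17, Tipin, Cdca7, Luc7l3 and Far1 (r from 0.975 to 0.979). Among the 8 genes, Ctss went most closely with H2-DMa (r = 0.937), and Ciita with Cd74 (r = 0.905). The libraries of a group share their cell type and culture, and the 10 points are not independent of these.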

How the data were processed

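RNA of 10 libraries, 2 for each of 5 groups, was sequenced in single-end reads of 59 bases from poly(A) RNA (20 ng total RNA per library). The authors mapped reads to GRCm38 with the CLC Genomics Workbench at default settings and deposited for each gene the count of exon reads, not normalized, together with counts of uniquely mapped exon reads and of intron reads. The RPKM values, which the authors deposited in the same tables with decimal commas, equal exon reads divided by exon length and one constant per library. Annotation release and strand setting are not given in the sources used here. Groups were taken from the labels, and replicate numbers of T cells in medium and of co-cultured T cells only name a library.

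For the tests, exon reads were filtered (filterByExpr), scaled by TMM and fitted by glmQLFit and glmQLFTest of edgeR 4.0.16 under R 4.3.3, with p-values adjusted after Benjamini-Hochberg over every gene in the fit and a threshold of 0.05. One fit held the 4 keratinocyte libraries, another the 6 of T cells, and the interaction was fitted over 8 libraries. SE is the size of a log2 fold change divided by the square root of F. Each fit was repeated without single libraries, on uniquely mapped reads, without the filter, with library sizes instead of TMM, by limma 3.58.1 (log2(RPKM + 1)) and by DESeq2 1.42.0, and for keratinocytes also with a block for the replicate number. Fits were tested on simulated data. Tables and plots were made with Python 3.11.15, numpy 2.4.6, pandas 2.3.3 and matplotlib 3.10.9.

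Named are the 8 genes, Lyz2 and Cd79a, and of the lists those genes that passed a test or belong to the class II promoter factors, the IFN-γ pathway or H2-O, besides the 5 genes most like Ciita, H2-Ab1 and Ctss and markers of cell types. Other genes given with values (Tap1 and Psmb9 in keratinocytes, H2-DMb2, the costimulatory genes, Cd3d, Cd4, Cd8a, Cd79b) were named after their values had been seen. From the lists of B-cell markers and of the IFN-γ pathway, 1 gene each is not reported here. The genes and lists were chosen with earlier results of these data known. Replicates of a group differed far beyond sampling noise. With 2 libraries a group, 0.333 is the smallest two-sided p of an exact permutation test. Libraries held 12864931 to 18019609 exon reads, of which 78.2 to 87.2% were uniquely mapped.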

Additional observations from a re-analysis of the deposited data

Results flagged for a closer look

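The change with co-culture differed between keratinocyte and T-cell libraries by the interaction term for 3 genes of the lists read along, and for none of the 8 class II genes. For Irf1 the difference of log2 fold changes, keratinocytes minus T cells, was 3.73 (SE 0.54, edgeR adjusted p = 0.0364), with 3.19 and 5.72 RPKM in keratinocytes alone and 58.3 and 62.3 in co-culture, against 58.0 and 52.3 in T cells in medium and 70.5 and 44.5 in co-cultured T cells. For Ctsl it was -4.15 (SE 0.47, edgeR adjusted p = 0.0156), from 152 and 153 RPKM to 82.1 and 89.7 in keratinocytes, and from 2.10 and 2.86 to 25.2 and 25.3 in T cells. For Krt6a it was -6.44 (SE 0.77, edgeR adjusted p = 0.0196), from 6418 and 4678 to 6239 and 5237 RPKM in keratinocytes, and from 0.256 and 0.356 to 41.9 and 16.3 in T cells. The 8 keratinocyte markers, Krt6a among them, summed to 39.3 to 118 RPKM in co-cultured T cells against 5.53 to 7.32 in medium. The part of keratinocyte RNA in the T-cell values of Krt6a and Ctsl was not tested. With each of the 8 libraries left out in turn, the adjusted p of edgeR rose above 0.05 in 7 cases for Irf1 (up to 0.143), in 6 for Ctsl (up to 0.0896) and in 4 for Krt6a (up to 0.112).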

How the results depend on the processing

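Of 649 alternative log2 fold changes, 566 kept their direction and their side of the threshold. The count of the 8 class II genes called was the same under most alternatives. In medium against activated T cells it was 2 in place of 1 without the filter on low counts (Ctss added) and 0 to 1 with a library left out. In co-cultured against activated T cells it was 3 in place of 2 with DESeq2 and without the filter (Ctss added) and 1 to 2 with a library left out, and against T cells in medium 1 in place of 0 with DESeq2. The number of all genes called moved more. In keratinocytes it was 186 with DESeq2, 11 without the filter, and 0 to 1164 with a library left out (1164 without co-cultured replicate 1, 21 without co-cultured replicate 2), in place of 0. In medium against activated T cells it was 1947 with DESeq2, 1945 without the filter, and 24 to 1067 with a library left out, in place of 776. For co-cultured against activated T cells these were 2344, 2425 and 266 to 1093 in place of 1222. For co-cultured T cells against those in medium they were 87, 141 and 16 to 52 in place of 31, and 99 with limma. For the interaction they were 358, 205 and 21 to 105 in place of 76. The cause of these shifts was not tested.

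Signs turned for 6 of the 7 class II genes in keratinocytes, and for others elsewhere. In keratinocytes H2-DMb1 was -0.045 with limma. With a library left out, the keratinocyte log2 fold change ranged from -0.65 to 2.50 for H2-Aa, from -0.51 to 2.33 for H2-Ab1, from -0.92 to 1.76 for H2-Eb1, from -0.63 to 2.05 for Cd74, from -0.60 to 0.54 for H2-DMb1, and from -1.05 to 1.79 for Ctss. In medium against activated T cells H2-Ab1 was -0.11 with library sizes in place of TMM and -0.14 with limma. There, ranges with a library left out were -0.55 to 1.33 for H2-Aa, -0.83 to 0.85 for H2-Ab1, -0.51 to 1.00 for H2-Eb1, -0.60 to 0.063 for Cd74, and -0.25 to 1.15 for H2-DMb1. In co-cultured T cells H2-Aa ranged from -1.16 to 0.11 against activated cells and Ctss from -0.042 to 0.33 against medium. In the interaction H2-DMb1 was 0.019 on uniquely mapped reads, and the ranges were -0.12 to 1.93 for H2-DMa, -0.94 to 0.27 for H2-DMb1 and -1.25 to 1.64 for Ctss.

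The numbers of the keratinocyte libraries could serve as a replicate block. Deviations from the group means went together in libraries of 1 number (r = 0.559 by Pearson over 12515 genes, no independent replicates), but only 2 pairs exist and no source says what a number shares. With the replicate block 2 genes were called in place of 0, none of them a class II gene, and H2-DMb1 was at -0.0018. Within both numbers 6 of 7 genes were higher in co-culture (all but H2-DMb1). Co-cultured over alone, RPKM ratios in numbers 1 and 2 were 1.87 and 1.72 for H2-Aa, 1.71 and 1.91 for H2-Ab1, 1.38 and 1.14 for H2-Eb1, 1.46 and 1.72 for Cd74, 2.78 and 1.41 for H2-DMa, 0.707 and 1.26 for H2-DMb1, and 1.09 and 1.47 for Ctss.

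On uniquely mapped reads Ciita fell to means of 0.0119 to 0.0470 RPKM in co-cultured keratinocytes and the T-cell groups, and H2-DMb1 to 2.18 RPKM in keratinocytes alone. At this depth Ciita cannot be compared between the keratinocyte groups.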
